A study of Mus musculus with 2 samples.

Results

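Smooth muscle and ureteric stroma nuclei of the embryonic mouse kidney were taken from a single-nucleus ATAC-seq (snATAC-seq) data set by their open chromatin over 6 marker genes. In snATAC-seq a transposase cuts open chromatin, and the cuts are counted per nucleus in peaks, which are stretches of the genome that were often cut. The rule kept barcodes with 4000 to 100000 counts in peaks, required a count for at least 3 of *Tbx18*, *Myh11*, *Acta2*, *Cnn1*, *Tagln* and *Myocd* over the gene body and 2 kb upstream, and took those in the top 2% of all kept barcodes by the share of counts that fell on the markers. It found 175 nuclei among 20924 kept barcodes, out of 23004 barcodes in the files. Of these, 78 came from the 9270 nuclei of the *Enl*-WT library and 97 from the 11654 nuclei of the *Enl*-T1 library.

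Kidneys of E15.5 embryos of B6 mice of either sex were compared between *Enl* flox-T1/+ *Wt1* GFPCre/+ embryos, called *Enl*-T1, and *Enl* +/+ *Wt1* GFPCre/+ embryos, called *Enl*-WT. The T1 allele is an insertion in the YEATS domain of ENL, a chromatin reader encoded by *Mllt1*, and is found in Wilms tumor. It was heterozygous and was switched on by a Cre driven from the *Wt1* promoter, which acts in nephron and stromal lineages. Both groups carried the Cre knock-in, which inactivates 1 copy of *Wt1*, so neither group was wild type at *Wt1*. Each group had 1 library, and how many embryos were pooled for it was not stated in the sources read here. Without replicates there was no spread between embryos to set a difference against, so values are given side by side with 95% intervals. These cover counting error only, except that the interval of a list median runs over the genes of the list. The insertion itself cannot be read from counts in peaks, so the genotype labels could not be checked here.

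The ureter and the renal pelvis are wrapped in smooth muscle that arises from the mesenchyme around the ureteric stalk. This mesenchyme carries the T-box factor *Tbx18*, receives hedgehog and BMP4 signals, and turns on *Myocd*, the coactivator that works with serum response factor (SRF) at CArG boxes to switch on contractile genes. Smooth muscle also coats the renal arteries, where the same contractile genes mark mural cells, so contractile markers alone do not tell the ureter from the vessel wall.

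The chosen nuclei were of usual depth for their library. Their median depth in *Enl*-WT was 13128.5 counts (range 5888 to 23705), beside 14893 over all kept nuclei. In *Enl*-T1 it was 8194 (range 4078 to 14019), beside 9023. Summed over the chosen nuclei, 926657 counts of *Enl*-WT and 759942 of *Enl*-T1 lay in 110706 regions where peaks of both libraries overlapped. Levels are given as counts per 1000000 counts in these shared regions (CPM). The libraries shared 169 barcode sequences, of which 5 belonged to chosen nuclei. Nuclei that resembled simulated doublets made up 3 of the 78 (3.85%) and 9 of the 97 (9.28%), below the 7.70% and 10.7% over all kept nuclei.

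DNA elements that carry the CArG box, the site of SRF and MYOCD, were read from the GRCm38 (mm10) genome and are shown here because some marker and contractile genes hold one. In the RefSeq promoter table (GRCm38), 18 of the contractile genes described below had an entry, and 3 of them (*Myl9*, *Ldb3* and *Vcl*) held a CArG box on either strand in the 250 bases before a start, against 1.47% of all 32851 starts. The 1.47% is a share of starts and not of genes. Each box printed below reads CC, a run of A and T, and GG. *Tbx18*, *Acta2* and *Cnn1* had an entry and no match in that window, where a site that departs from the letters searched would not be counted. In the peaks of the markers, *Tagln* held 2 boxes that lay in peaks of both libraries and *Tbx18* held 1 in *Enl*-WT, while, over both libraries, the 11 peaks of *Myh11*, the 2 of *Cnn1* and the 19 of *Myocd* held 0. Inside the *Acta2* gene, 3 boxes lay in peaks of *Enl*-WT, at 13574, 2388 and 1293 bases from the start, and only the last of them also lay in a peak of *Enl*-T1. Capitals mark the box in each stretch, which is printed 5′ to 3′ on the strand of its gene.
Myl9, chr2:156775248-156775367, plus strand: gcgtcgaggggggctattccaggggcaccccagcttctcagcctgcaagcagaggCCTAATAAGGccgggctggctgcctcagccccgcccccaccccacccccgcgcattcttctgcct
Ldb3, chr14:34588683-34588771, minus strand: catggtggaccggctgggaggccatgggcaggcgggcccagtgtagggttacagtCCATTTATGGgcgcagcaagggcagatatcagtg
Vcl, chr14:20929148-20929235, plus strand: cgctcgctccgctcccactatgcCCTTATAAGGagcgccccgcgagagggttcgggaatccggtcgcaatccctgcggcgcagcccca
Acta2 intron, 13574 bases in, chr19:34241952-34242071, minus strand: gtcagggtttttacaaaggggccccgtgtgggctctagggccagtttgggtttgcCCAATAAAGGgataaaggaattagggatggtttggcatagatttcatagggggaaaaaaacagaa
Acta2 intron, 2388 bases in, chr19:34253138-34253257, minus strand: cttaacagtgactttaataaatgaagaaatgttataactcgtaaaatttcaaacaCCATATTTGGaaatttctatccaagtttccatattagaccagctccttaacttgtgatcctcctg
Acta2 intron, 1293 bases in, chr19:34254233-34254352, minus strand: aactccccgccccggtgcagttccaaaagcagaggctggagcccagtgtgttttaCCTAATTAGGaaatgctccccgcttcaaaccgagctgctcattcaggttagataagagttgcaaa
The last of these is the only *Acta2* box that peaks of both libraries covered. A match to the letters is a description and not a bound site.

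The rule itself set the marker levels, so they are given as a description. The median chosen nucleus had 11 marker counts (*Enl*-WT) or 7 (*Enl*-T1), which is 8.41 and 8.72 per 10000 counts. The other nuclei had a median of 2 and 0 marker counts and a mean of 1.35 and 1.31 per 10000. The threshold fell at 6.67 marker counts per 10000. The last nuclei inside it had 6.69, 6.68 and 6.67, and the first outside had 6.62, 6.61 and 6.60. The requirement of 3 markers left out some of the top 2%, namely 65 *Enl*-WT nuclei and 178 *Enl*-T1 nuclei. Without regard to the share, 5.64% of *Enl*-WT nuclei but 1.88% of the shallower *Enl*-T1 nuclei had a count for 3 markers. Of the chosen nuclei, 48 in *Enl*-WT and 85 in *Enl*-T1 had exactly 3 markers, 22 and 11 had 4, and 8 and 1 had 5.

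**Figure D1:**
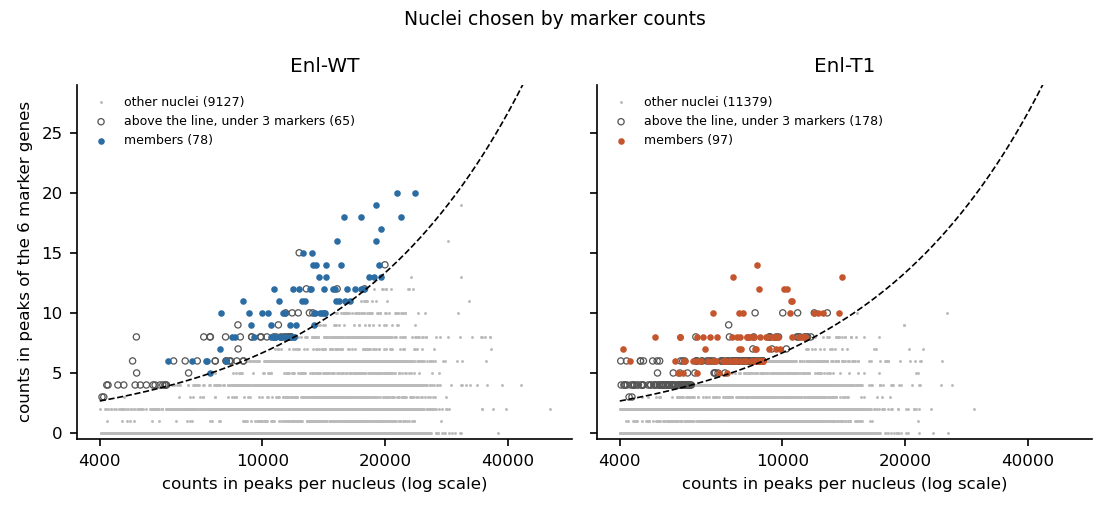
Counts over the peaks of the 6 marker genes (vertical axis) against all counts in peaks (horizontal axis, log scale) for each kept nucleus of each library. Filled points are the 78 and 97 chosen nuclei, open circles are the 65 and 178 nuclei above the dashed threshold of 6.67 marker counts per 10000 counts that had under 3 markers, and grey points are the rest.

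Each of 5 markers had a count in 50.5% to 71.8% of the chosen nuclei of a library, and *Cnn1* in fewer. *Tbx18* had a count in 69.2% of chosen nuclei in *Enl*-WT and 62.9% in *Enl*-T1, and its level was 108 CPM (interval 80.1 to 142) and 180 CPM (140 to 228), against 20.4 and 21.7 CPM in other nuclei. *Myh11*, smooth muscle myosin heavy chain, had a count in 69.2% and 61.9%, at 169 CPM (134 to 211) and 195 CPM (153 to 244). *Acta2*, smooth muscle actin, had a count in 56.4% and 55.7%, at 183 CPM (147 to 227) and 158 CPM (120 to 203). The rule set these shares, so their distance from those of other nuclei is a description. In endothelial nuclei *Tbx18* had a count in 9.84% and 8.26%, *Myh11* in 17.2% and 10.7%, and *Acta2* in 7.79% and 5.79%. In all nuclei not chosen, *Tbx18* had a count in 16.2% and 11.1%, *Myh11* in 17.3% and 9.99%, and *Acta2* in 13.3% and 8.71%. The endothelial nuclei were chosen by the same rule from *Pecam1*, *Cdh5*, *Flt1*, *Kdr*, *Tek* and *Emcn*, and comprised 244 *Enl*-WT nuclei with a median depth of 14787.5 counts and 121 *Enl*-T1 nuclei with 7933.

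*Tagln*, encoding transgelin, had a count in 71.8% (*Enl*-WT) and 50.5% (*Enl*-T1) of them, at 180 CPM (144 to 223) and 150 CPM (114 to 194). *Myocd* had a count in 67.9% and 66.0%, at 120 CPM (90.4 to 156) and 178 CPM (138 to 225). *Cnn1*, calponin of smooth muscle, covers the fewest bases in peaks (978 and 968 bp) and had a count in 14.1% and 16.5%, at 23.7 CPM (11.9 to 42.5) and 40.8 CPM (23.1 to 66.7). Counts of *Tagln* and *Tbx18* were found together in 50.0% (*Enl*-WT) and 27.8% (*Enl*-T1) of chosen nuclei, and those of *Myh11* and *Acta2* in 37.2% and 33.0%.

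**Figure D2:**
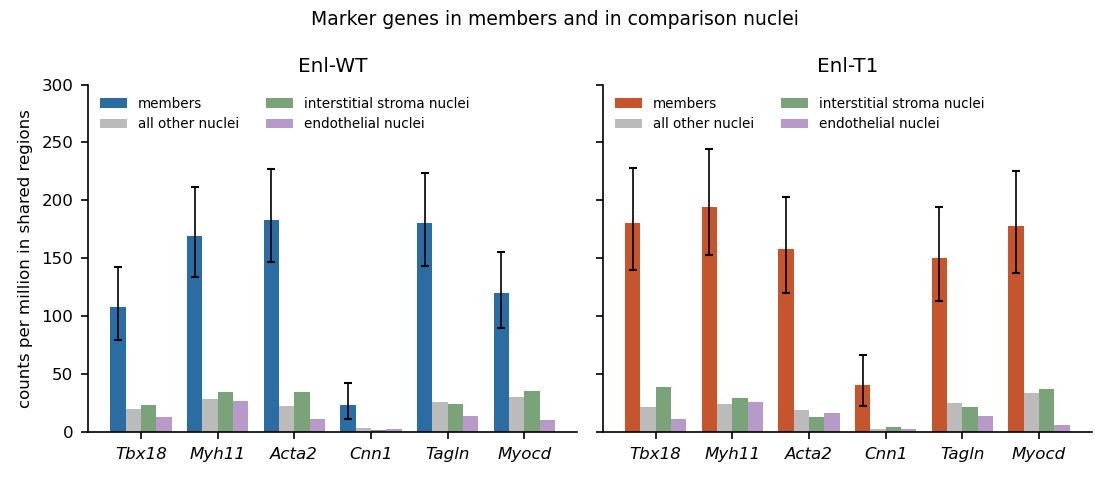
Levels of the 6 marker genes, in CPM in shared regions, in the chosen nuclei, in all other nuclei and in interstitial stroma and endothelial nuclei chosen by the same rule from their own markers. Bars are summed levels of 1 library each and whiskers on the chosen nuclei are 95% counting intervals; the rule fixed that the chosen nuclei are high, for example at 183 CPM of *Acta2* against 22.9 CPM in other *Enl*-WT nuclei.

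The share of nuclei chosen was 0.841% in *Enl*-WT (interval 0.666 to 1.05%) and 0.832% in *Enl*-T1 (0.675 to 1.01%), which differed by less than the counting error. The shares were also close under some other rules. They were 0.818% and 0.817% with doublet-like nuclei left out, and 1.00% and 0.930% with 6000 counts as the minimum. For the top 1% the intervals overlapped, at 0.475% (0.345 to 0.637%) and 0.558% (0.431 to 0.710%). Other rules set the libraries apart. With the top 5% the shares were 2.13% (1.84 to 2.44%) and 1.37% (1.17 to 1.60%). Without a minimum of markers they were 1.54% (1.30 to 1.81%) and 2.36% (2.09 to 2.65%), a difference in the opposite direction. With 2000 fragments drawn from every nucleus before the rule was applied, 25 nuclei (0.270%, 0.175 to 0.398%) were chosen from *Enl*-WT and 20 (0.172%, 0.105 to 0.265%) from *Enl*-T1, and 25 of them all were among the 175. The markers had 34 peaks in *Enl*-WT and 27 in *Enl*-T1, covering for example 5524 and 4390 bp of *Acta2*.

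The marker genes were then checked against the rest of the open chromatin. Nuclei of both libraries were compared by latent semantic indexing with the regions of the 6 markers left out, and the 15 nearest nuclei of each were found. Chosen nuclei did not form a tight group. Of those in *Enl*-WT, 57.7% had no other chosen nucleus among their 15 nearest, and of those in *Enl*-T1, 73.2%, against 91.0% and 89.1% of other nuclei. At least 3 chosen neighbours were found for 9 (*Enl*-WT, 11.5%) and 5 (*Enl*-T1, 5.15%) chosen nuclei, against 0.707% and 0.251% of other nuclei. The nuclei are therefore called marker-high nuclei below, after the rule that chose them and not after a cell type.

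Clusters from the same embedding gathered most of the marker-high nuclei. Of 28 clusters, 18 held at least 1, and 5 held at least 5 of them at more than 2 times the overall share of 0.836%. These 5 clusters, numbered 1, 2, 9, 15 and 22, held 129 of the 175 (73.7%) and 23.9% of the other nuclei. The share of marker-high nuclei reached 6.29% in cluster 22, 3.70% in cluster 9 and 3.37% in cluster 15, and was 2.04% in cluster 1 and 1.82% in cluster 2. By library, 60 of the 78 nuclei of *Enl*-WT (76.9%) and 69 of the 97 of *Enl*-T1 (71.1%) lay in these clusters. The 5 clusters together made up 21% of all *Enl*-WT nuclei (20.2 to 21.8%) and 27.0% of all *Enl*-T1 nuclei (26.2 to 27.8%). The libraries were not evenly spread over them, since cluster 15 had 29 *Enl*-WT nuclei and 564 *Enl*-T1 nuclei. Outside the 5, cluster 0 had 2 and 2893 nuclei, cluster 8 had 10 and 979 and cluster 4 had 1238 and 88. The embedding was made without integration, so the clusters divide the nuclei in part by library. This limits the shares above and the ratios within clusters given below.

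Genes outside the rule were compared between marker-high nuclei and all other nuclei of the same library. Across 808 genes with at least 100 counts in the marker-high nuclei of each library, none was at least 2-fold higher in both libraries (0% called) and none 2-fold lower (0%). With a minimum of 50 counts, 1 gene of 3605 was 2-fold higher, *Cpq*, a secreted carboxypeptidase, which is named because of its value. The gene nearest to the limit was *Ano4*, a member of the anoctamin membrane proteins, at 129 CPM in marker-high and 59.3 CPM in other nuclei of *Enl*-WT and 157 and 79.6 CPM in *Enl*-T1. The log2 ratio of *Ano4* was 1.13 (0.73 to 1.49) and 0.98 (0.59 to 1.35). *Matn2*, the matrix protein matrilin, followed with log2 ratios of 1.21 (0.87 to 1.52) and 0.96 (0.60 to 1.33). Both genes were about as open in interstitial stroma nuclei, *Ano4* at 129 and 182 CPM and *Matn2* at 177 and 189 CPM.

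The other genes at the head of the order were higher in both libraries by smaller ratios. They were *Prickle2*, a planar cell polarity gene, *Kcnb2*, a potassium channel subunit, *Smg6* of nonsense-mediated decay, *Crocc2*, *Adam19*, a membrane metalloprotease, *Hpse2*, *Lsp1*, *Pgm5*, *Ldb2* and *Negr1*. Their lower log2 ratio of both libraries ran from 0.76 in *Prickle2* to 0.62 in *Negr1*. *Pgm5*, which encodes aciculin of smooth muscle adhesion plaques, stood at 204 against 109 CPM in *Enl*-WT and 180 against 116 CPM in *Enl*-T1. *Hpse2*, encoding heparanase 2, which is mutated in a human syndrome of impaired bladder emptying, stood at 197 against 118 CPM and 236 against 146 CPM. Several of these genes were about as open in interstitial stroma nuclei, such as *Hpse2* at 171 and 231 CPM, *Smg6* at 436 and 451 CPM and *Ldb2* at 220 and 210 CPM. *Prickle2*, *Kcnb2* and *Pgm5* stood lower there in both libraries, *Pgm5* at 139 and 150 CPM, and *Adam19* and *Lsp1* in *Enl*-WT only. At the other end were *Ptprm*, *Skap1*, *Chst11*, *Bri3*, *Alk*, *Gramd1b*, *Fyn* and *Trappc9*. *Ptprm*, a receptor tyrosine phosphatase abundant in endothelium, ranked first by the higher of its ratios, with log2 ratios of -0.65 (-0.97 to -0.37) and -0.60 (-0.91 to -0.30).

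Genes of the contractile apparatus were higher in marker-high nuclei than in all other nuclei of the same library almost throughout. Of the 20 genes on the list, 17 had at least 40 counts over the marker-high nuclei, and 16 of the 17 were above 0 in both libraries, against 27.4% of all 11558 genes at that minimum. Their median log2 ratio was 0.61 in *Enl*-WT and 0.43 in *Enl*-T1, where the median of all genes was -0.01 and -0.01. With scaling by the median of ratios the median of all genes moved to -0.20 and -0.18 and that of the list to 0.42 and 0.26, with 16 and 13 of 17 above 0. When the rule was applied to drawn counts, the list had a median of 0.47 in *Enl*-WT and 0.05 in *Enl*-T1, over 12 genes, beside 0.12 and 0.11 over all genes, so that in *Enl*-T1 the list lay below all genes. Summed over the list the level was 2786 CPM in marker-high and 1862 CPM in other nuclei of *Enl*-WT, and 2251 and 1788 CPM in *Enl*-T1. Interstitial stroma nuclei, chosen by the same rule from their own markers, had 2303 and 2221 CPM, and endothelial nuclei 2200 and 2146 CPM. Both were close to the 2251 CPM of marker-high nuclei of *Enl*-T1. Nuclei of clusters 1, 2, 9, 15 and 22 that were not chosen had 2573, 2433, 2712, 2825 and 2681 CPM in *Enl*-WT. In *Enl*-T1 they had 2503, 2313, 2467, 2201 and 2869 CPM. Marker-high nuclei of *Enl*-WT lay above these levels except in cluster 15, where 23 *Enl*-WT nuclei were left. Marker-high nuclei of *Enl*-T1 lay below them except in cluster 15.

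*Tns1*, encoding the adhesion protein tensin, had the most counts of the list (457 and 272), or 493 and 358 CPM, with log2 ratios to other nuclei of 0.38 and 0.06. *Mylk*, the kinase that phosphorylates myosin light chain to start contraction, had 299 and 177 counts and log2 ratios of 0.77 and 0.24. *Synpo2*, an actin-binding protein of muscle, had 197 and 154 counts and log2 ratios of 0.84 and 0.62. Chosen after their values were seen, *Kcnmb1*, the smooth muscle subunit of the BK channel, had the highest ratios at 1.46 and 1.64 on only 26 and 21 counts, and *Tpm2* and *Myl9* had 1.16 and 0.72, and 1.19 and 0.52. *Vcl*, encoding vinculin, was the only one of the 17 that was not above 0 in both libraries, at 0.33 and -0.59.

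**Figure D3:**
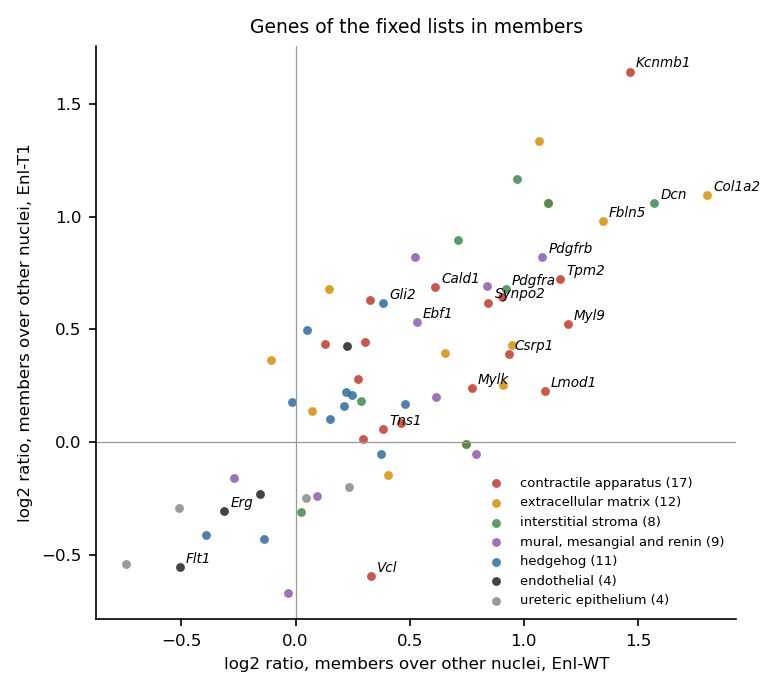
Log2 ratio of marker-high nuclei over other nuclei in *Enl*-WT (horizontal axis) and *Enl*-T1 (vertical axis) for genes of 7 lists with at least 40 counts; each point is 1 gene, and the lists do not contain the 6 marker genes. Of the 17 contractile genes 16 sit above 0 on both axes, together with most matrix and interstitial stroma genes, and *Vcl* lies below 0 in *Enl*-T1.

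Regulators of smooth muscle outside the rule were not raised as a list. Of 11 genes with enough counts, 4 were above 0 in both libraries and 4 below, with medians of -0.07 and 0.03. Of all 11558 genes with at least 40 counts, 27.4% were above 0 in both libraries and 3398 were below in both. *Gata6*, a factor of vascular and visceral smooth muscle, had log2 ratios of 0.93 and 0.98 on 43 and 40 counts, and is named because of these values. *Srf* itself had 0.12 and 0.21 on 128 and 113 counts, *Mrtfa*, a relative of *Myocd*, -0.20 and 0.11, *Mef2c* 0.50 and 0.03, and *Tead1* -0.19 and -0.33.

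Ureteric mesenchyme genes were higher in part. Of 13 genes with enough counts, 7 were above 0 in both libraries, beside 27.4% of all genes, and 0 below in both. Their medians were 0.26 and 0.16. Their summed level of 1474 and 1303 CPM stood beside 1459 and 1458 CPM in interstitial stroma nuclei. *Tshz2*, a relative of the ureteric factor *Tshz3*, had 419 and 299 counts and log2 ratios of 0.41 and 0.16. *Ptch1*, the hedgehog receptor and target, had 200 and 148 counts and ratios of 0.21 and 0.16. *Id2* had 0.21 and -0.08. *Tshz3*, needed for ureteric smooth muscle, had 0.74 and 0.29, while *Tbx3* and *Tbx2* stood at 0.74 and 0.48 in *Enl*-WT and at -0.33 and -0.26 in *Enl*-T1. *Tbx3* and *Tbx2* were picked after their values were seen. Hedgehog genes showed 7 of 11 above 0 in both libraries, beside 27.4% of all genes, with medians of 0.21 and 0.17. *Ptch1*, *Gli1* and *Hhip* are on both the hedgehog and the ureteric mesenchyme list, so these counts are not separate. The hedgehog list summed to 1354 and 1386 CPM beside 1358 and 1338 CPM in interstitial stroma nuclei. *Gli2*, the activator of the pathway, was the clearest of them, at 289 against 222 CPM in *Enl*-WT and 383 against 250 CPM in *Enl*-T1. *Sufu*, an inhibitor, was lower in both, at -0.14 and -0.43.

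Genes of other stromal classes were also higher, some by more than the contractile genes. Of 8 interstitial stroma genes with enough counts, 6 were above 0 in both libraries, beside 27.4% of all genes, and 0 below. Their medians were 0.83 and 0.79. *Pdgfra*, the receptor of fibroblasts, had 105 and 80 counts and log2 ratios of 0.92 and 0.68. *Meis1* had 0.29 and 0.18 and *Meis2* 0.03 and -0.31. The summed interstitial stroma level was 807 and 804 CPM against 572 and 645 CPM in other nuclei, but 1460 and 1564 CPM in the interstitial stroma nuclei chosen by the same rule, 77 in *Enl*-WT and 117 in *Enl*-T1. Those nuclei were chosen from *Foxd1*, *Pdgfra*, *Tcf21*, *Col1a1*, *Lum* and *Dlk1*, which set their level, and 3 nuclei met both rules. Extracellular matrix genes had 9 of 12 above 0 in both libraries, beside 27.4% of all genes, and medians of 0.83 and 0.41. *Col1a1* and *Col3a1* are on both the matrix and the interstitial stroma list. *Col5a1*, a fibrillar collagen, had 168 and 122 counts and ratios of 0.66 and 0.39, and *Fbln5*, which assembles elastic fibres, 1.35 and 0.98 on 89 and 49 counts.

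Mural and mesangial genes divided. Of 9 with enough counts, 5 were above 0 in both libraries and 2 below, with medians of 0.53 and 0.20. Of all 11558 genes at that minimum, 27.4% were above and 3398 below in both libraries. The mural list summed to 968 and 900.1 CPM beside 962 and 939 CPM in interstitial stroma nuclei. *Pdgfrb*, the pericyte receptor, had 137 and 84 counts and log2 ratios of 1.08 and 0.82. *Ebf1* had 0.53 in both libraries on 227 and 214 counts, and *Cspg4*, a pericyte proteoglycan, 0.62 and 0.20. Added after their values were seen, *Rgs5* had 0.84 and 0.69 on 45 and 29 counts, and *Notch3*, the Notch receptor of arterial smooth muscle, 0.09 and -0.24. Neither the ureteric nor the mural list moved one way throughout, since 6 of 13 and 2 of 9 genes differed in sign between libraries, and the ureteric and the vascular kind of smooth muscle were not told apart here.

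Markers of cells outside the stroma were near or below the level of other nuclei. The 8 endothelial genes summed to 274 CPM in *Enl*-WT and 253 CPM in *Enl*-T1, against 340 and 304 CPM in other nuclei and 1860 and 1929 CPM in endothelial nuclei. *Flt1*, a VEGF receptor, had log2 ratios of -0.51 and -0.55, *Pecam1* -0.16 and -0.23, and *Erg* -0.31 and -0.31. The 8 ureteric epithelium genes summed to 223 and 217 CPM against 292 and 300 CPM, and the 6 nephron progenitor genes to 131 and 101 CPM against 161 and 163 CPM. Differentiated nephron genes summed to 248 and 230 CPM against 296 and 243 CPM. Immune genes stood at 413 and 461 CPM against 438 and 417 CPM. The neural crest list summed to 18.3 and 19.7 CPM against 50.8 and 46.6 CPM, with *Sox10* at 0 in both libraries, where 3 counts would be 3.24 and 3.95 CPM. Of the skeletal and cardiac muscle list, *Myf5*, *Myf6* and *Nkx2-5* were at 0 in both libraries, and the list summed to 63.7 and 65.8 CPM against 60.5 and 61.9 CPM.

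Single regions were compared in the same way. Of 1936 shared regions with at least 40 counts over the marker-high nuclei of each library, 12 were at least 2-fold higher in both (0.62%), and with a minimum of 20 counts 260 of 7748 (3.36%). The minimum uses the counts of the marker-high nuclei, so a region that is high in them passes it more readily. The 12 regions lay in introns of *Ano1*, *Tacc1*, *Kcnh2*, *Lsp1*, *Adgra2* and *Itga9*, or between genes nearest to *St8sia2*, *Trub1*, *Haao*, *Nepro*, *Gm26897* and *B4galt3*. *Ano1* encodes the calcium-gated chloride channel that is used by smooth muscle and by pacemaker cells of the gut wall. Of the 12, 11 lay more than 2 kb from a gene start, as did 6.62% of the regions tested. Of the 260, 86.5% did, against 15.2% of those tested.

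The region ranked first by the lower of its ratios was in the intron of *Ano1* at chr7:144663392-144664295 (mm10), 5.08 kb from the start, with 41 counts in each library. Its level was 44.2 CPM against 14.5 CPM in *Enl*-WT and 54.0 CPM against 18.3 CPM in *Enl*-T1, or log2 ratios of 1.61 (0.85 to 2.21) and 1.56 (0.80 to 2.16). The intron of *Tacc1* at chr8:25211503-25212398 had 47 and 42 counts and ratios of 1.61 and 1.51. The region nearest to *St8sia2*, at chr7:74080088-74081268 and 66.4 kb from its start, had 40 and 42 counts and ratios of 1.48 and 1.57. The intron of *Itga9*, an integrin of smooth muscle, at chr9:118629591-118630528 had 68 and 42 counts and ratios of 1.37 and 1.09. Open chromatin at these places was not particular to marker-high nuclei: in interstitial stroma nuclei the *Tacc1* region stood at 29 and 37.1 CPM and the *St8sia2* region at 33.5 and 69.8 CPM, whereas endothelial nuclei had 4.85 and 0 CPM at *Tacc1* and 1.94 and 6.22 CPM at *St8sia2*.

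The central 300 bases of 4 of these regions are shown as examples, each with 4 matches to 3 of the 11 motifs that were searched on both strands. The region nearest to *Gm26897* held 5 matches to 4 motifs, that nearest to *Nepro* 3 to 3, and that nearest to *Trub1* held 0. Capitals mark E-boxes (CAGCTG), MEIS sites (TGACAG), sites of the posterior Hox factors (TTTATNG) and NFI sites (TTGGCA), and all are printed 5′ to 3′ on the plus strand of mm10.
Tacc1 intron, chr8:25211801-25212100: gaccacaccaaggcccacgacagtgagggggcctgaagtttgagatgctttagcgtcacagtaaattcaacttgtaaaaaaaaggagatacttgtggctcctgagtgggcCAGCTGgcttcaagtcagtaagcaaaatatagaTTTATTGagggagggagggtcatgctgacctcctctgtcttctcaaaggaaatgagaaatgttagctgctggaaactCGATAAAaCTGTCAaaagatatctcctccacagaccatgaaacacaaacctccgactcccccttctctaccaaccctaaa
Nearest to St8sia2, chr7:74080528-74080827: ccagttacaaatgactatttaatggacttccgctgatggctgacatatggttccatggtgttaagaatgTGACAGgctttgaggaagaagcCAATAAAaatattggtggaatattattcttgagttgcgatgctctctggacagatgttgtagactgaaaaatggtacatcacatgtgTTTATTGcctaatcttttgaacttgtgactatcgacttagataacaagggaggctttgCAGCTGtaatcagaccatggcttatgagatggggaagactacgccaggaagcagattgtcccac
Lsp1 intron, chr7:142481763-142482062: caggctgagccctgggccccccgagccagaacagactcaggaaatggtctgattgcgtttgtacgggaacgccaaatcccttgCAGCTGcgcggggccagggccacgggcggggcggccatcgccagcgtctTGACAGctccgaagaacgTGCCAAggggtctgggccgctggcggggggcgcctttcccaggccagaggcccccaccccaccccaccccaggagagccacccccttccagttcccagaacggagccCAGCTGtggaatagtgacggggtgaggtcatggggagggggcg
Itga9 intron, chr9:118629910-118630209: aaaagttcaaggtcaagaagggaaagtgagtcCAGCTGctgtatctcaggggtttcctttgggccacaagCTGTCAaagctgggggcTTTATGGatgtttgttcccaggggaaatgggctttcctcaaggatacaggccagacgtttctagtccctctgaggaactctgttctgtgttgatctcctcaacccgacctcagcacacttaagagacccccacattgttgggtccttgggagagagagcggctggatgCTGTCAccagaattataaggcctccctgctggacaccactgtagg

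Motif matches were counted in the central 300 bases of the 260 regions and of the regions tested. The E-box was held by 44.6% against 17.6%, the MEIS site by 31.9% against 15.0%, and the posterior Hox site by 19.2% against 5.99%. GC content moved with these shares, at a median of 50.0% in the 260 against 65.3% in all, and so did distance from a start, and their part in the shares was not tested. Among regions more than 2 kb from a start, 225 and 1174, the shares lay closer: 45.3% against 30.9% for the E-box, 34.2% against 22.8% for MEIS, and 20.4% against 15.2% for the Hox site, with a GC content of 49.3% against 55.3%. The TEAD site (CATTCC) was held by 22.7% against 19.2% there, the AP-1 site (TGANTCA) by 11.1% against 7.75%, and the GATA site (GATAAG) by 12% against 6.90%. The forkhead site (TGTTTAC) was held by 7.56% against 4.6%, the NFI site by 22.2% against 16%, the SOX site (ACAATGG) by 2.22% against 2.47%, and the T-box site (GGTGTGA), the class of *Tbx18*, by 1.78% against 3.58%. The CArG box was in 2.22% (5 regions) against 1.70%, and in none of the 12 regions named above.

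*Enl*-T1 was then compared with *Enl*-WT within the marker-high nuclei. The marker levels follow from the rule and are given as values: the log2 ratio of *Enl*-T1 over *Enl*-WT was 0.74 (0.18 to 1.29) in *Tbx18*, 0.57 (0.03 to 1.10) in *Myocd*, 0.78 (-0.37 to 2.08) in *Cnn1*, 0.20 (-0.27 to 0.69) in *Myh11*, -0.22 (-0.72 to 0.28) in *Acta2* and -0.26 (-0.78 to 0.23) in *Tagln*. Of 151 genes outside the rule with at least 400 counts over both libraries, none was past 1.5-fold higher (0%) and 3 were past 1.5-fold lower (1.99%). The ratios of these 151 genes had a median of 0.00. The marker-high nuclei of *Enl*-T1 were shallower, with medians of 8194 against 13128.5 counts, and values with 2000 fragments drawn from each nucleus are given for the named genes and lists where they differ in direction or by much. In regions matched closely between libraries the marker ratio moved to 1.69 (0.77 to 2.84) in *Tbx18*, 0.06 (-0.53 to 0.64) in *Acta2* and -1.03 (-2.54 to 0.31) in *Tagln*.

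The 3 lower genes were *Ets1*, *Rgl1* and *Pdzd2*. *Ets1*, an ETS factor, had 273 (*Enl*-WT) and 139 (*Enl*-T1) counts, or 295 and 183 CPM, a log2 ratio of -0.69 (-1.11 to -0.25), against -0.11 in other nuclei. *Rgl1*, an exchange factor for Ral GTPases, had 381 and 203 counts, or 411 and 267 CPM, at -0.62 (-0.97 to -0.26), and *Pdzd2* had 429 and 233 counts, or 463 and 307 CPM, at -0.59 (-0.94 to -0.26). In interstitial stroma nuclei all 3 were also lower in *Enl*-T1. There *Ets1* stood at 290 and 201 CPM, *Rgl1* at 428 and 363 CPM and *Pdzd2* at 430 and 372 CPM. In endothelial nuclei *Ets1* went the other way, at 265 and 324 CPM. All 3 were higher in marker-high than in other nuclei of *Enl*-WT, by 0.61, 0.68 and 0.52, and near the level of other nuclei in *Enl*-T1, at 0.02, 0.11 and -0.02. The genes were picked by a ratio that uses the same counts, so this follows in large part from the choice. With drawn counts the ratios were -0.88 for *Ets1*, -0.87 for *Rgl1* and -0.69 for *Pdzd2*. For *Ets1* the ratio was -0.15 when only regions within 2 kb of a start were counted and turned to 0.21, on 32 counts of *Enl*-T1, when the rule itself was applied to drawn counts. Next in order came *Mylk* at -0.47 (-0.88 to -0.09), *Tns1* at -0.46 (-0.78 to -0.15), *Cic*, *Cfap43*, *Gpc6*, *Cuedc1* and *Gatad2a*, the last at -0.41.

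Of the genes higher in *Enl*-T1, *Filip1l*, *Smyd3*, *Ccbe1*, *Kcnma1*, *Macrod2*, *Nav2*, *Celf4*, *Camta1*, *Tenm2* and *Gli2* led. *Filip1l* had 203 and 248 counts, or 219 and 326 CPM, a log2 ratio of 0.58 (0.18 to 0.96), against 0.08 in other nuclei. *Smyd3* stood at 0.55 (0.22 to 0.88) and at 0.22 in other nuclei. *Kcnma1*, the pore-forming subunit of the BK channel whose partner is *Kcnmb1*, stood at 285 and 401 CPM, or 0.49 (0.14 to 0.84), against 0.23 in other nuclei. *Gli2* stood at 0.41 (0.06 to 0.76). None of these reached 1.5-fold, but with drawn counts *Filip1l* stood at 1.21, *Tenm2* at 0.72 and *Gli2* at 0.69, and *Smyd3* at 0.29. Most of the genes that led were also higher in *Enl*-T1 in interstitial stroma nuclei, such as *Kcnma1* at 299 and 422 CPM and *Smyd3* at 364 and 445 CPM. *Celf4* at 348 and 265 CPM, *Tenm2* at 283 and 233 CPM and *Nav2* at 487 and 484 CPM were lower there.

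Contractile genes other than the markers were lower in *Enl*-T1 in most cases. Of the 17 genes, 14 had a ratio below 0 and 3 above, against 47.8% of all 11558 genes above 0. Their median was -0.21 (-0.47 to -0.02, over the genes) in marker-high nuclei and -0.03 in other nuclei. An interval over genes treats them as separate draws from 1 library per group and is a description. *Synpo2* was at -0.07, beside *Mylk* and *Tns1* given above. Picked after their values were seen, *Vcl* had 139 and 54 counts, at -1.08 (-1.79 to -0.43), *Lmod1*, leiomodin of smooth muscle, 112 and 50 counts, at -0.88 (-1.62 to -0.17), and *Csrp1*, a LIM protein of smooth muscle, 172 and 90 counts, at -0.65 (-1.20 to -0.11). Most of these named genes were also lower, by less, in the nuclei of the 5 clusters that were not chosen. There *Vcl* was at -0.19, *Csrp1* at -0.16, *Tns1* at -0.09, *Lmod1* at -0.07 and *Synpo2* at -0.03, but *Mylk* at 0.10. With drawn counts the median was -0.32 over 16 genes. It stayed below 0 in each of the alternative settings tried, from -0.10 with the marker-high nuclei of the 5 clusters alone to -0.64 with the rule on drawn counts, leaving aside a setting with values for only 4 genes. The interval over genes reached past 0 for the 5 clusters alone (-0.41 to 0.01) and for regions within 2 kb of a start (-0.48 to 0.02).

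**Figure D4:**
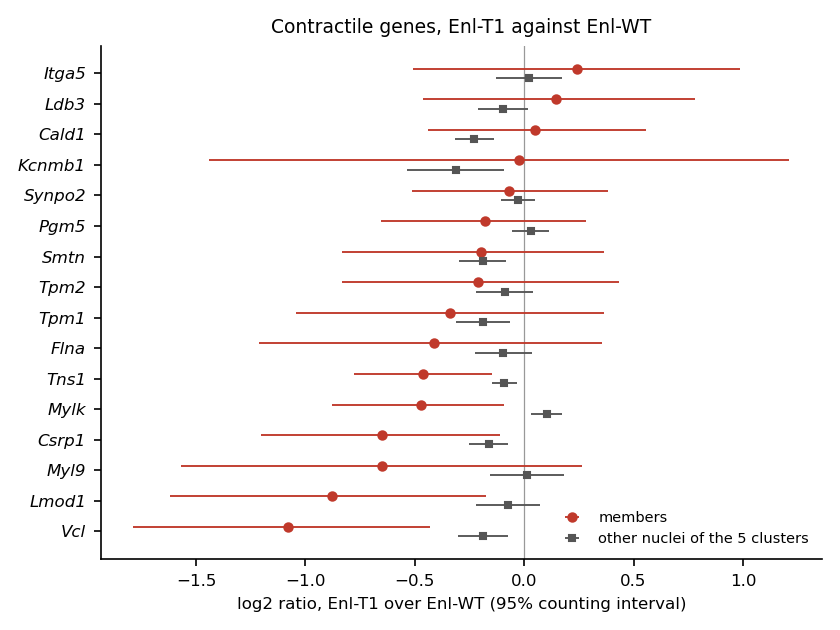
Log2 ratio of *Enl*-T1 over *Enl*-WT for 16 of the 17 contractile genes, in marker-high nuclei (red points) and in the other nuclei of the 5 clusters that hold most of them (grey squares); lines are 95% counting intervals. Of the red points 13 lie below 0, with *Vcl* at -1.08, and most of their intervals cross 0.

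Of all genes, 47.8% were above 0 in *Enl*-T1 over *Enl*-WT. Ureteric mesenchyme genes had 4 of 13 above 0 and a median of -0.20, and *Tbx3*, chosen for its value, was at -0.86 (-1.79 to -0.07). Hedgehog genes had 6 of 11 above 0 and a median of 0.05, which turned to -0.34 (3 of 8 above 0) with drawn counts and to -0.16 with regions within 2 kb of a start. Interstitial stroma genes had 3 of 8 above 0 and a median of -0.11, matrix genes 5 of 12 and -0.25, mural genes 3 of 9 and -0.34, and regulators 5 of 11 and -0.14. With drawn counts the regulators turned to 0.16 over 7 genes and the mural genes stood at -0.05 over 6, and with regions within 2 kb of a start the matrix genes turned to 0.21. The intervals of the main medians, over genes, all reached past 0.

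*Hox* genes, which set the position of cells along the body axis and lie in 4 clusters, were not shifted one way. Of 22 with at least 40 counts, 11 were higher and 11 lower in *Enl*-T1, with a median of -0.04, where 47.8% of all genes were higher. *Hoxa3* was at 0.09 (-0.31 to 0.48), *Hoxc5* at -0.36 (-0.82 to 0.08) and *Hoxd3* at -0.45 (-1.06 to 0.14). Named because of their values, *Hoxc6* was at -1.29 (-2.11 to -0.50) on 113 and 38 counts and *Hoxa11* at 1.59 (0.27 to 3.34) on 13 and 32 counts. With drawn counts 4 of 11 were higher, with a median of -0.28.

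The 5 clusters allowed the marker genes to be read in nuclei that the rule had not chosen. The embedding had left out the marker regions, and the marker-high nuclei were removed. The clusters were picked for their share of marker-high nuclei, so a higher marker level inside them follows from that choice, as for *Acta2* at 43.5 and 29.4 CPM inside and 17.9 and 16.2 CPM outside. Within the clusters *Acta2* was lower in *Enl*-T1, with 1022 (*Enl*-WT) and 706 (*Enl*-T1) counts and a log2 ratio of -0.56 (-0.76 to -0.37), or -0.59 (-0.81 to -0.36) in regions matched closely between libraries. Outside the clusters the ratio was -0.15 (-0.30 to 0.00), or -0.05 (-0.23 to 0.13) in matched regions. *Acta2* is 1 of the markers that picked the clusters and the nuclei removed, so the ratios inside and outside are a description. With the marker-high nuclei kept in, the ratio of *Acta2* inside the clusters was -0.54 (-0.72 to -0.35). The intervals cover counting error alone. *Myh11* was at -0.34 (-0.53 to -0.15) inside and -0.25 (-0.38 to -0.12) outside. *Tagln* was at -0.28 (-0.48 to -0.08) inside, but in matched regions, which kept 96 and 112 of its counts, it was at 0.16 (-0.42 to 0.75). *Tbx18* was at 0.21 (0.01 to 0.42) inside and -0.07 (-0.22 to 0.08) outside, and at 0.31 (-0.06 to 0.70) inside in matched regions. *Cnn1* was at -0.40 (-1.0 to 0.19) and *Myocd* at -0.07 (-0.26 to 0.13) inside.

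By cluster the *Acta2* ratio was -0.35 (-0.70 to -0.01) in cluster 1, -0.81 (-1.16 to -0.45) in cluster 2, -0.65 (-1.18 to -0.16) in cluster 9 and -1.73 (-2.69 to -0.61) in cluster 15, where *Enl*-WT had 23 nuclei. Cluster 22, with 84 and 50 nuclei, went the other way at 0.62 (-0.50 to 1.63). The summed contractile list differed by less, at -0.04 in cluster 1, -0.07 in cluster 2, -0.14 in cluster 9, -0.36 in cluster 15 and 0.10 in cluster 22, beside -0.08 in all other nuclei. A lower level of *Acta2* in a cluster can come from less open chromatin per nucleus or from fewer nuclei of the kind that holds it open, and these cannot be told apart here.

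**Figure D5:**
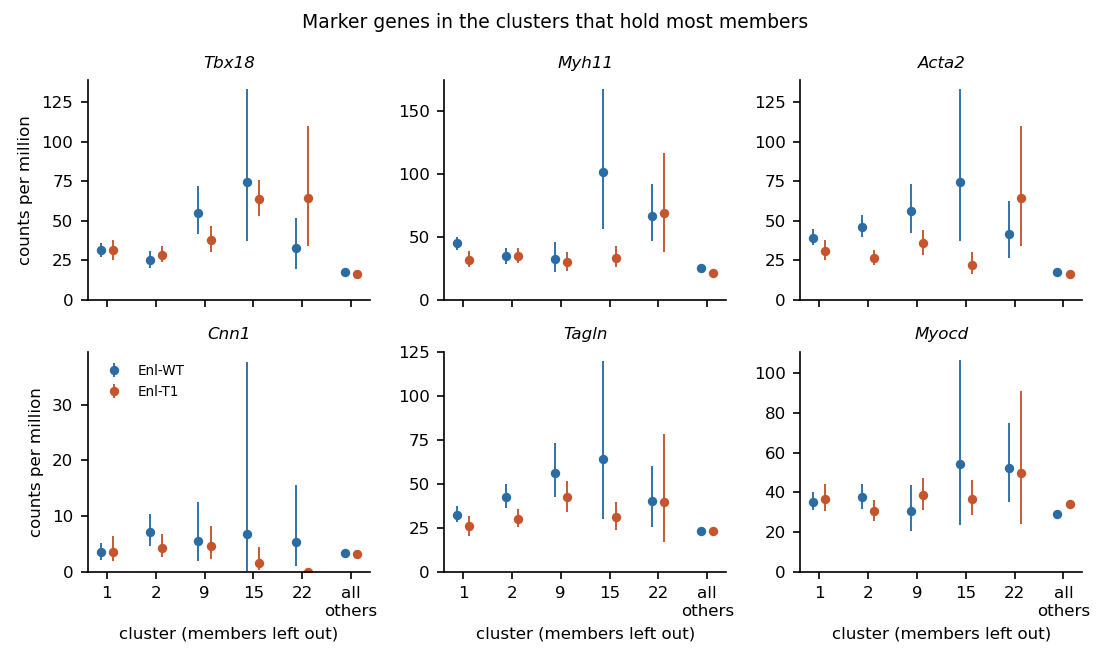
Levels of the 6 marker genes, in CPM, in the nuclei of clusters 1, 2, 9, 15 and 22 and in all other nuclei, with marker-high nuclei left out; points are 1 library each and lines are 95% counting intervals. *Acta2* was lower in *Enl*-T1 in clusters 1, 2, 9 and 15 and higher in cluster 22, and the single point of *Cnn1* at 0 has no line.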

How the data were processed

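Nuclei of 1 *Enl*-WT and 1 *Enl*-T1 kidney library were analysed. Per the study's methods and the labels, the authors aligned the reads to mm10 with Cell Ranger ATAC 2.1.0, called peaks in each library, and deposited raw counts per peak and barcode. Of the matrix entries 91.1% and 88.0% were even, so 2 counts stand for about 1 fragment. The study's filters on fragments were not applied, and doublets, whose removal is not stated, were marked by simulation (0.8% per 1000 barcodes) and kept.

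Shared regions (110706) are merged peaks of both libraries that overlap by at least 1 bp, found with bedtools 2.31.1, and 76162 matched with a reciprocal overlap of 80%. Counts were summed over nuclei, per gene over the body and 2 kb upstream (GENCODE M21, 21958 genes), and scaled to counts per 1000000 (CPM). Intervals are 95% intervals. They are binomial (Clopper-Pearson) for shares and exact Poisson or conditional binomial on fragments (counts / 2) for levels and ratios, and these cover counting error only. The interval of a list median is taken from the ranked ratios of its genes. With 1 library per group no p-value is given. The embedding used latent semantic indexing (components 2 to 30, regions open in 0.5% of nuclei, scikit-learn 1.9.0) and Leiden clustering (leidenalg 0.10.2, resolution 1, 15 neighbours), without integration.

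The members and lists were chosen with earlier results of these data known. Genes were named by a rule: the 6 markers, the 12 highest and 8 lowest in both libraries, the 10 highest and 10 lowest in *Enl*-T1 against *Enl*-WT, and up to 4 of each list by counts; of genes that share more counted regions than not, 1 is named. Values of some genes are not reported here, though they count in their lists. Ratios were tested on simulated counts.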

Additional observations from a re-analysis of the deposited data

How the results depend on the processing

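No paired analysis was possible because each group is 1 library and the labels give no replicate numbers in common beyond it. Of 45 counts and shares recomputed, 24 moved by less than their counting interval or by under 1.5 times, and 226 of 246 list medians and 1444 of 1560 values of named genes stayed within their intervals or, for lists too short for one, moved little. The share of nuclei depended on the rule (*Enl*-WT, then *Enl*-T1): 0.270% and 0.172% on counts drawn to 2000 fragments, 0.658% and 0.798% with marker peaks found in both libraries, 0.475% and 0.558% for the top 1%, 2.13% and 1.37% for the top 5%, 1.54% and 2.36% without a minimum of markers, 0.0108% and 0.112% for the top 2% among nuclei with 3 markers, and 1.00% and 0.930% with 6000 counts as the minimum. Genes 2-fold higher in both libraries numbered 1 of 3605 with a minimum of 50 counts (*Cpq*), 1 with the top 2% taken within each library (*Ano4*) and 1 in members of the 5 clusters alone (*Matn2*). Genes past 1.5-fold in *Enl*-T1 were 12 higher and 39 lower of 1093 with a minimum of 200 counts, 0 lower of 13 with one of 800, and 1 higher (*Smyd3*) and 0 lower of 50 in matched regions, where *Ets1*, *Rgl1* and *Pdzd2* had too few counts to be tested and stood at -0.97, -0.76 and -0.82. Regions 2-fold higher numbered 260 with a minimum of 20 counts and 7 of 693 in members of the 5 clusters alone. Signs turned for *Bri3* to 0.14, *Gpc6* to 0.13, *Tead1* to 0.10 and *Ebf1* to -0.62 with regions within 2 kb of starts; for *Fyn* to 0.30, *Nav2* to -0.00221, *Celf4* to -0.57, *Ets1* to 0.21 and *Mef2c* to -0.00783 with the rule on drawn counts; for *Tenm2* to -0.024 in matched regions, *Ebf1* to -0.085 in members with 3 member neighbours and *Lrp2* to 0.42 on drawn counts. The cause was not tested, except that other minima and matched regions test more or fewer genes by construction. The rule on drawn counts, the 5 clusters alone and the smaller region minimum were chosen after seeing the data. Settings that left under 10 features or under 20 counts of a gene give no value.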
